A study of Homo sapiens with 9 samples.

Results

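The growth factor genes *TGFA*, *HBEGF*, *AREG*, *EREG* and *NRG1*, 5 ligands of the EGF family, were followed across 2 doses of a plant phenolic in melanoma cells. They were taken from the count table by gene symbol, and all 5 were found among its 22605 features. The counts came from mRNA sequencing of A375, an established human melanoma cell line. The control group was left untreated. The other groups received 100 µM or 200 µM of Salvianolic acid B (SalB), a polyphenol from danshen root, over 48 h. Each of the 3 groups had 3 libraries, which the series' design text calls biological replicates without naming separate cultures. All were A375 cells under the same culture conditions, and the labels name no other agent and no introduced genetic change. A result in this 1 line does not extend to other melanoma cells.

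EGF family ligands are made as membrane-anchored precursors. Cell-surface proteases such as ADAM17 cut off the extracellular part, which then binds receptor tyrosine kinases of the ErbB family on the same or a neighbouring cell. TGF-alpha (*TGFA*) and amphiregulin (*AREG*) bind EGFR, heparin-binding EGF-like growth factor (*HBEGF*) and epiregulin (*EREG*) bind EGFR and ERBB4, and neuregulin 1 (*NRG1*) binds ERBB3 and ERBB4. Receptor activation feeds the ERK and PI3K pathways, and several ligand genes are themselves induced by ERK signalling. Melanoma cells commonly carry abundant ERBB3.

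*TGFA* fell at 200 µM, from 225 ± 6.92 to 72.0 ± 5.96 normalised counts (CPM, counts scaled to a common library size, mean ± SD, n = 3), 3.12-fold lower. *HBEGF* moved in opposite directions at the 2 doses: it was 1.76-fold lower than control at 100 µM and 3.69-fold higher at 200 µM. *AREG* was 5.04-fold lower at 100 µM and not distinguishable from control at 200 µM. *NRG1* was higher at 200 µM, but that call against control was kept in only 2 of the 9 fits that left out 1 library. *EREG* was at the limit of detection in every group. In bulk RNA, fewer cells of a type and less RNA per cell cannot be told apart.

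The promoters of *AREG* and *HBEGF* are shown because these genes were both lower at 100 µM than in control and both higher at 200 µM than at 100 µM. The sequences, from RefSeq on GRCh38.p14, run 5′ to 3′ on the strand of the gene up to the first annotated start. They cover chr4:74444886-74445133 on the plus strand for *AREG* and chr5:140346632-140346853 on the minus strand for *HBEGF*. Capitals mark matches on either strand to the cyclic AMP response element TGACGTCA, the TATA box TATAAA and the GC box GGGCGG.
AREG: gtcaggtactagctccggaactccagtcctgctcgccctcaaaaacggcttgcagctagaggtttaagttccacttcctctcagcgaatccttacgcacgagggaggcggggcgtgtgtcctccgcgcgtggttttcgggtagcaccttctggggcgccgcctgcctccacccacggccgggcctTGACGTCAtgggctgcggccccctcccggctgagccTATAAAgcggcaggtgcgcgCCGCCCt
HBEGF: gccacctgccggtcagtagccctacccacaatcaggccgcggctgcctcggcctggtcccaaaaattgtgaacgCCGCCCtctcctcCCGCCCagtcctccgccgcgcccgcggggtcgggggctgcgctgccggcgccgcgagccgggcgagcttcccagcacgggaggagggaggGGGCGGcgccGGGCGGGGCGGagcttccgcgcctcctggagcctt

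Both windows are GC-rich, at 65.3% for *AREG* and 76.1% for *HBEGF*. *AREG* had 1 response element match beginning 65 bases before the RefSeq start, 1 TATA box beginning 29 bases before it and 1 GC box. *HBEGF* had 5 GC boxes and neither of the other 2 marked motifs. Of 35116 RefSeq promoter windows of 250 bases, 1.65% held TGACGTCA, 10.7% held TATAAA and 42.6% held GGGCGG. The AP-1 letters TGANTCA, present in 6.57% of windows and the E-box CACGTG, in 6.34%, were in none of the windows of the 4 ligand genes with an entry. The NF-kB letters GGGNNNNNCC are in 54.4% of all windows. They matched at 2 places in *AREG* and in *HBEGF* as 1 match that overlaps a GC box. *TGFA* had 6 matches in 1 window and 1 in its other window, and *EREG* had 0. A match of letters describes the window and shows no binding.

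Depth was 27348621 to 30629685 counts per library. The library of 200 µM replicate 3 stood apart, with 4.69% of its counts in the 13 mitochondrially encoded mRNAs, against 1.81% and 1.85% in the other libraries of its group, 2.09% to 2.29% in control and 2.83% to 3.11% at 100 µM. The changes of *NRG1* at 200 µM and of *HBEGF* between the doses, and some list counts, are given with and without it. Other values at 200 µM include this library unless stated. As markers of the line, *SOX10*, a neural crest and melanocyte factor, had 9383 to 16645 counts in every library. It stood at 323 to 361 CPM in control, 523 to 535 at 100 µM and 411 to 552 at 200 µM. In the same list of 12, *S100B* stood at 39.5 to 43.7 CPM in control, 60.8 to 64.0 at 100 µM and 16.7 to 21.3 at 200 µM, and the melanocyte regulator *MITF* at up to 31.5 CPM in control, 16.6 to 19.1 at the lower dose and 15.5 to 23.6 at the higher. The list summed to 3174 to 3288 CPM in control, 4237 to 4478 at the lower dose and 3619 to 4186 at the higher. *VIM* supplied most of this sum, at 2582 to 2651 CPM in control. Its level was 3512 to 3746 CPM at the lower dose and 3033 to 3500 at the higher. The sum therefore mainly reflects *VIM*, which shares up to 12.4% of its exon bases with an antisense gene. The pigment cell markers *MLANA* (4 to 15 counts), *PMEL* (0 to 20) and *TYR* (0 to 3) were near or at 0. Of the 7 leukocyte markers, the defining *PTPRC* had 0 to 3 counts. Their summed level was 21.6 to 25.2 CPM in control, 18.1 to 20.2 at 100 µM and 59.2 to 84.6 at 200 µM. Most of it was *CD68*, which shares 81.7% of its exon bases with another gene. The 7 epithelial markers summed to 235 to 244 CPM in control, 311 to 344 at the lower dose and 299 to 396 at the higher, with *EPCAM* at 0 to 9 counts. Most of that sum was the keratin gene *KRT18*, at 189 to 196 CPM in control. It stood at 256 to 284 CPM at the lower dose and 263 to 337 at the higher. *KRT8*, with which *KRT18* shares 16.3% of its exon bases, had 35.0 to 61.4 CPM over all libraries. The 10 fibroblast and endothelial markers summed to 31.7 CPM at most in control, 53.2 to 56.8 at the lower dose and 36.1 to 41.3 at the higher. The part of these shifts in the ligand results was not tested.

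Differences were tested with the quasi-likelihood test of edgeR over 13968 genes, and a gene was called at a Benjamini-Hochberg adjusted p under 0.05. Of the 5 ligands, 4 passed the filter on low counts and *EREG* did not. At 100 µM, 3 of the 4 were called lower than control and 0 higher, where 18.2% of all tested genes were called lower and 18.9% higher. At 200 µM, 2 were called higher and 1 lower than control, where 19.8% of genes were called higher and 17.5% lower. Between the doses, 3 were higher and 1 lower at 200 µM, with 22.4% and 21.9% of all genes called in those directions. In either direction 37.1% of genes were called at 100 µM, 37.3% at 200 µM and 44.4% between the doses. Calls that also moved by 1 or more on the log2 scale were fewer, at 7.9%, 9.33% and 13.8% of genes, and covered 1 ligand at 100 µM (*AREG*), 2 at 200 µM (*HBEGF* and *TGFA*) and 3 between the doses (*AREG*, *HBEGF* and *TGFA*).

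**Figure D1:**
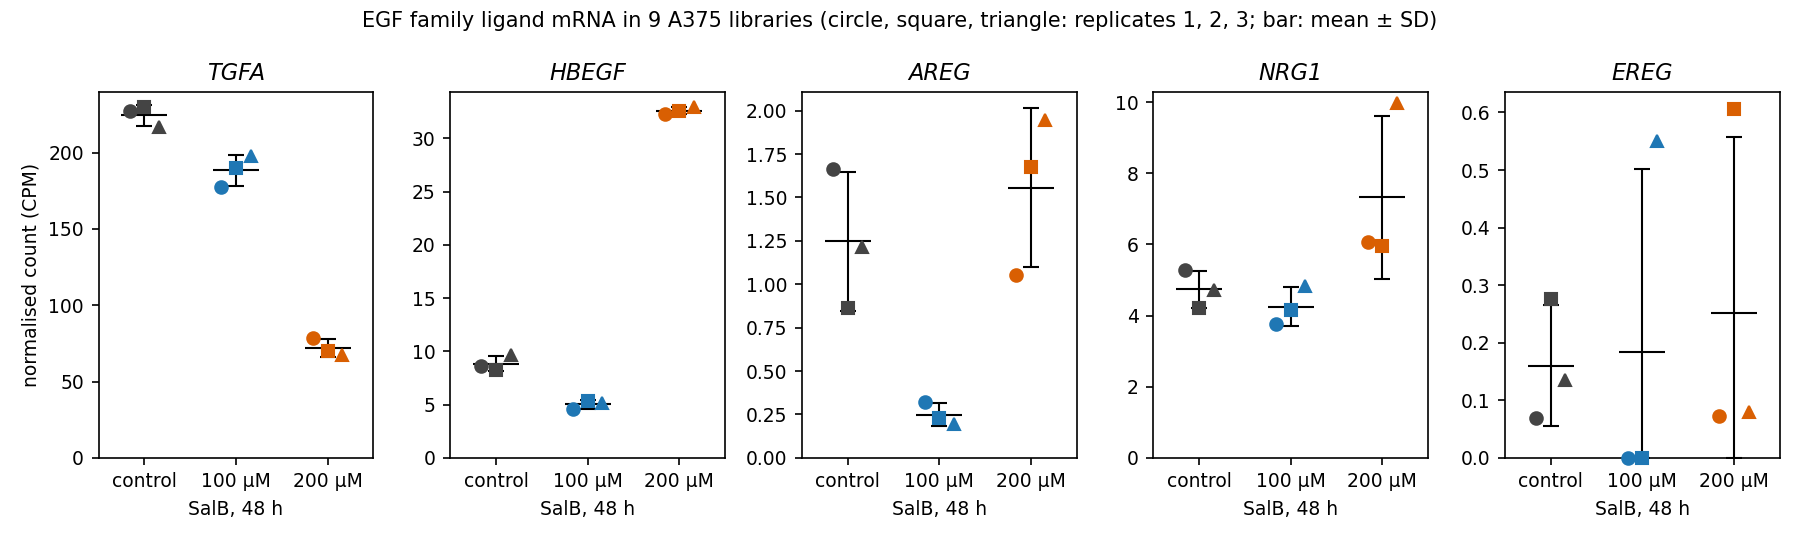
Normalised counts (CPM, vertical axis from 0 in each panel) of the 5 ligand genes in the 9 libraries, by group, with mean ± SD of 3 libraries and the lower bar of EREG cut at 0. TGFA lies at 67.5 to 78.8 CPM at 200 µM, below every library of the other groups. HBEGF dips at 100 µM and sits at 32.3 to 32.9 CPM at 200 µM, and 1 library at 200 µM lifts the mean of NRG1.

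*TGFA* (ENSG00000163235, protein-coding, GRCh38 chromosome 2, 70447280 to 70554193, minus strand) encodes TGF-alpha, a high-affinity EGFR ligand. Its level was 227, 230 and 217 CPM in the control libraries, 177, 190 and 198 CPM at 100 µM, and 78.8, 69.8 and 67.5 CPM at 200 µM. The 3 groups did not overlap, and every library at 200 µM lay far below every other library. Groups without overlap were common, at 67% of tested genes for 100 µM against control, 48.8% for 200 µM against control and 53.3% between the doses. The log2 fold change against control was -1.64 ± 0.08 at 200 µM (SE, edgeR adjusted p = 2.7e-06). Between the doses it was -1.39 ± 0.08 (edgeR adjusted p = 3.6e-06).

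At 100 µM the difference of *TGFA* from control was small, -0.25 ± 0.08 on the log2 scale, 1.19-fold lower (edgeR adjusted p = 0.037). This call was lost with total-count scaling (-0.19, adjusted p = 0.13), and without any 1 of the control or 100 µM libraries (adjusted p from 0.067 to 0.14). *TGFA* was also the only member of the 5 in the authors' deposited table of 100 features, whose values were read here as FPKM. In the authors' deposited table it stood at 53.4, 54.2 and 53.1 in control, 48.8, 51.6 and 53.6 at 100 µM and 19.1, 18.4 and 16.4 at 200 µM. On that scale the control and 100 µM libraries overlapped, and the 200 µM libraries did not overlap with either. The deposited means were 53.6 in control and 51.3 at 100 µM, closer together than the CPM means of 225 and 188. The reason for this gap between the scales was not tested.

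*HBEGF* (ENSG00000113070, protein-coding, chromosome 5, 140332843 to 140346631, minus strand) encodes a heparin-binding ligand whose membrane form also serves as the receptor for diphtheria toxin. Its level was 8.59, 8.27 and 9.66 CPM in control, 4.56, 5.29 and 5.19 CPM at 100 µM, and 32.3, 32.6 and 32.9 CPM at 200 µM. The counts behind these values were 240 to 286, 142 to 163 and 829 to 915. No library of any group overlapped with another group, and the 200 µM libraries differed by less than the control libraries did. The log2 fold change was -0.82 ± 0.11 at 100 µM (edgeR adjusted p = 4.9e-04) and 1.88 ± 0.10 at 200 µM (edgeR adjusted p = 4.0e-06), each against the same control libraries. Between the doses it was 2.70 ± 0.11, which is 6.51-fold higher at 200 µM (edgeR adjusted p = 4.9e-07). All 3 calls were kept under each of the 18 alternative settings.

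*AREG* (ENSG00000109321, protein-coding, chromosome 4, 74445134 to 74455009, plus strand) encodes amphiregulin, a lower-affinity EGFR ligand. Its counts were 48, 25 and 36 in control, 10, 7 and 6 at 100 µM and 29, 47 and 49 at 200 µM. In CPM these were 1.66, 0.861 and 1.22, then 0.321, 0.227 and 0.194, then 1.05, 1.67 and 1.95. The 100 µM libraries lay below all others, while control and 200 µM overlapped. Its passage through the filter rested on the control and 200 µM libraries. With so few reads, counting error is a large part of each value.

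The log2 fold change of *AREG* was -2.31 ± 0.38 at 100 µM against control (edgeR adjusted p = 0.0017) and 2.63 ± 0.38 between the doses (edgeR adjusted p = 5.4e-04), a 6.29-fold higher level at 200 µM than at 100 µM. Both calls were kept in all 18 alternative settings. At 200 µM against control it was 0.32 ± 0.33, with a 95% interval of -0.42 to 1.06 (edgeR adjusted p = 0.48). That interval holds both lower and higher levels than control, so equality with control is not shown.

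*EREG* (ENSG00000124882, protein-coding, chromosome 4, 74365143 to 74388751, plus strand) encodes epiregulin. It had 2, 8 and 4 counts in control, 0, 0 and 17 at 100 µM and 2, 17 and 2 at 200 µM. A count of 0 in the 2 libraries at 100 µM allows a level of up to 0.0963 and 0.0973 CPM, which is 3 counts. No group was consistently high or low, since 1 library held nearly all reads in each treated group. Differences in *EREG* were not detectable at this depth.

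*EREG* and *AREG* are neighbours on chromosome 4, 56383 bases apart, and the protein-coding genes that flank the pair are EGF family ligands too. Epigen (*EPGN*), 49836 bases before *EREG*, had 4 counts in 1 control library and 0 in all others. Betacellulin (*BTC*), 289750 bases after *AREG*, binds EGFR and ERBB4. It had 80, 67 and 51 counts in control, 9, 22 and 24 at 100 µM and 32, 42 and 64 at 200 µM. Like *AREG*, *BTC* was lowest in all 3 libraries at 100 µM. It was lower than control at 100 µM (-1.93 ± 0.42, edgeR adjusted p = 0.0066) and higher at 200 µM than at 100 µM (1.54 ± 0.42, adjusted p = 0.016). At 200 µM against control it was not called (-0.39 ± 0.39, adjusted p = 0.47). As for *AREG*, the passage of *BTC* through the filter rested on the control and 200 µM libraries.

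*NRG1* (ENSG00000157168, protein-coding, chromosome 8, plus strand) encodes neuregulin 1, whose many isoforms act through ERBB3 and ERBB4. Its level was 5.27, 4.20 and 4.73 CPM in control, 3.76, 4.15 and 4.83 CPM at 100 µM and 6.06, 5.95 and 9.97 CPM at 200 µM. Control and 100 µM overlapped, and the 3 libraries at 200 µM lay above both, with replicate 3 well above the others. It was not called at 100 µM, at -0.16 on the log2 scale with a 95% interval of -0.65 to 0.34 (edgeR adjusted p = 0.61). At 200 µM it was higher than control by 0.63 ± 0.22 (edgeR adjusted p = 0.049). Without 200 µM replicate 3, the library rich in mitochondrial mRNA, the change was 0.36 (adjusted p = 0.081). The call also ended without any 1 of the control or 100 µM libraries (adjusted p from 0.061 to 0.15). It was kept without 200 µM replicate 1 (0.75, adjusted p = 0.043) or replicate 2 (0.75, adjusted p = 0.028).

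Between the doses *NRG1* was higher at 200 µM by 0.78 ± 0.22 on the log2 scale (edgeR adjusted p = 0.017). Without 200 µM replicate 3 this was 0.49 (adjusted p = 0.023). The call was lost without 100 µM replicate 1 (adjusted p = 0.067) or replicate 2 (0.059). Counts were summed over the gene, so isoforms of *NRG1* were not told apart.

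**Figure D2:**
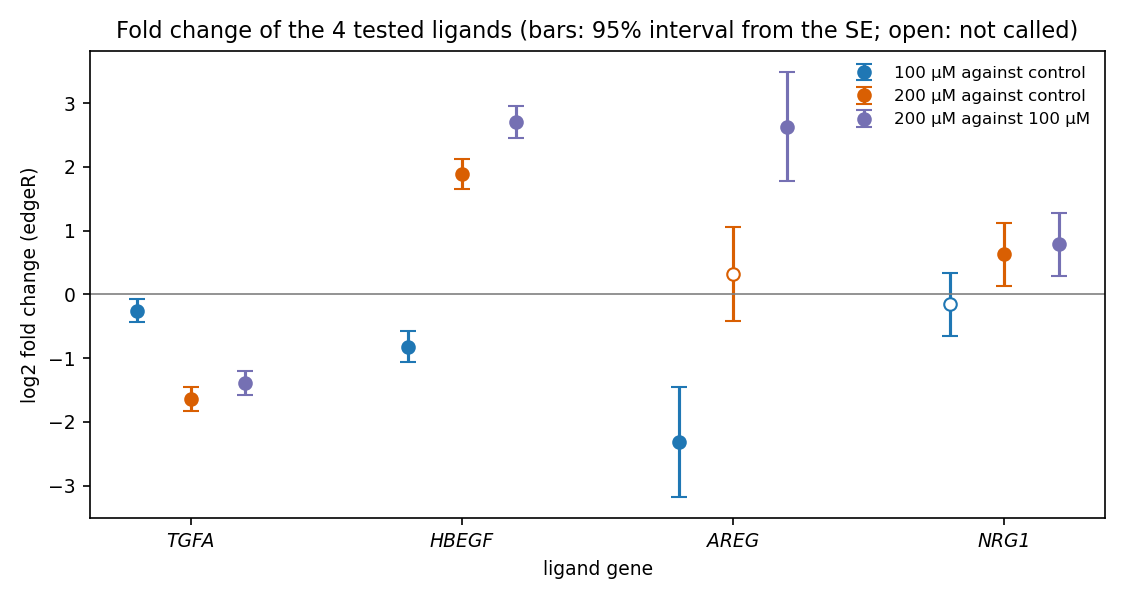
Log2 fold change from edgeR (vertical axis) of the 4 tested ligand genes in the 3 comparisons, with 95% intervals from the standard error and the t distribution of the test. Filled points passed an adjusted p under 0.05. HBEGF lies below 0 at 100 µM and above 0 at 200 µM against control, TGFA lies at -1.64 at 200 µM, and the 2 open points are AREG at 200 µM and NRG1 at 100 µM.

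Levels of different genes were compared per length, as CPM divided by the length of the merged annotated exons in kilobases (RPKM). In control, *TGFA* was highest at 45.3 ± 1.39 RPKM, followed by *HBEGF* at 2.93 ± 0.241, *AREG* at 0.756 ± 0.244, *NRG1* at 0.418 ± 0.0470 and *EREG* at 0.0280 ± 0.0184 (SD, n = 3). The merged exons of *NRG1* span 11328 bases against 5931 in its longest transcript, and with transcript lengths *AREG* and *NRG1* overlapped in control. At 100 µM the order below *HBEGF* (1.66 ± 0.131 RPKM) was *NRG1* at 0.375 ± 0.0479, *AREG* at 0.150 ± 0.0399 and *EREG* at 0.0321 ± 0.0556. At 200 µM *TGFA* was 14.5 ± 1.20 RPKM and *HBEGF* 10.8 ± 0.102, still without overlap, while *AREG* (0.945 ± 0.278) and *NRG1* (0.646 ± 0.202) overlapped.

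The 5 ligand mRNAs together stood at 49.4 ± 1.17 RPKM in control, 40.2 ± 2.24 at 100 µM and 26.9 ± 0.704 at 200 µM. *TGFA* made up 91.6% ± 0.902 of that sum in control, 94.5% ± 0.106 at 100 µM and 53.8% ± 3.07 at 200 µM. *HBEGF* made up 5.94% ± 0.631, 4.13% ± 0.169 and 40.1% ± 1.35. The level of *TGFA* was 15.5 ± 1.69 times that of *HBEGF* in control, 22.9 ± 0.933 times at 100 µM and 1.34 ± 0.123 times at 200 µM. With lengths of the longest transcript the last ratio was 1.22 ± 0.112. The sum leaves out the other EGF family ligands, of which *NRG2* was highest per length, at 2.17 ± 0.200 RPKM in control, 2.35 ± 0.198 at 100 µM and 2.30 ± 0.0109 at 200 µM.

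**Figure D3:**
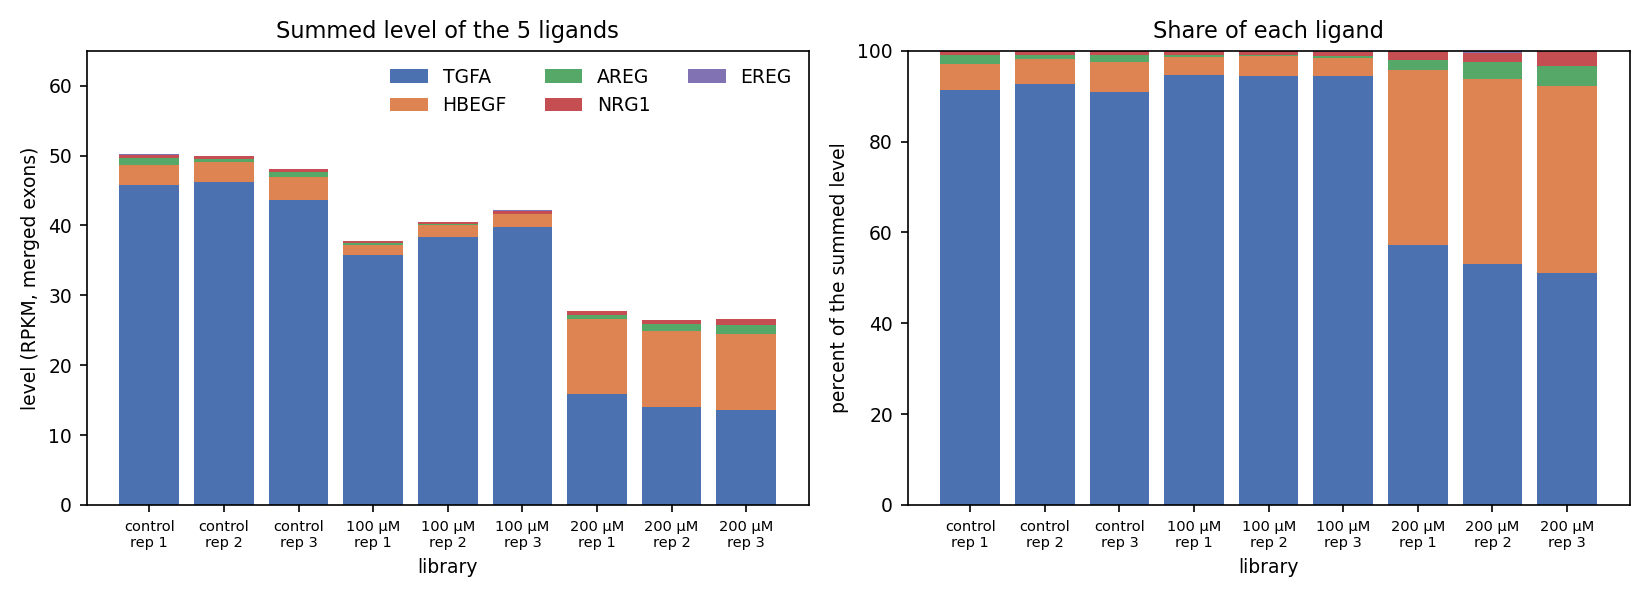
Summed level of the 5 ligand mRNAs (left, RPKM over merged exons) and the share of each ligand in percent of that sum (right), for each of the 9 libraries. The sum is lowest in the 3 libraries at 200 µM, where HBEGF takes 38.6% to 41.0% of it, against at most 6.66% in the other 6 libraries.

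Of the 6 other EGF family ligand genes, 4 passed the filter, and 1 was called lower and 0 higher at each dose against control, where 18.2% (100 µM) and 17.5% (200 µM) of all genes were lower. That gene was *BTC* at 100 µM and *NRG4*, a neuregulin that binds ERBB4, at 200 µM. *NRG4* had 26 to 40 counts in control and 32 to 37 at 100 µM, but 7, 3 and 3 at 200 µM (-2.84 ± 0.36, edgeR adjusted p = 3.8e-04). *NRG4* passed the filter only through the control and 100 µM libraries. It shares 38.1% of its exon bases with *FBXO22* on the other strand and is uncertain, since no source used here says whether the counting used strand. *EGF*, the founding member, stood at 3.16 ± 0.575 CPM in control, 3.58 ± 0.744 at 100 µM and 2.80 ± 0.567 at 200 µM and was not called. *NRG2* was not called either (9.82 ± 0.902, 10.6 ± 0.893 and 10.4 ± 0.0493 CPM). *NRG3* had 0 counts in all libraries.

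Among the receptors, *ERBB3*, which binds neuregulins and signals with a partner, was the most abundant per length, at 23.6 ± 0.392 RPKM in control. It rose from 214 ± 3.55 to 357 ± 24.3 CPM at 100 µM (0.74 ± 0.07 on the log2 scale, edgeR adjusted p = 1.0e-04) and stood at 198 ± 6.45 CPM at 200 µM (-0.11 ± 0.07, adjusted p = 0.27, and -0.17 with adjusted p = 0.037 after removal of the GC trend). *ERBB2*, the ligandless partner receptor, rose from 34.5 ± 3.05 to 72.4 ± 4.70 CPM at 100 µM (adjusted p = 8.6e-04) and to 55.7 ± 12.4 CPM at 200 µM (adjusted p = 0.0072). *EGFR*, the receptor of *TGFA*, *HBEGF* and *AREG*, was low, at 0.863 ± 0.0677 RPKM in control. It went from 10.8 ± 0.848 CPM in control to 11.1 ± 1.01 at 100 µM, which was not called, and to 15.7 ± 2.87 at 200 µM (0.54 ± 0.15, edgeR adjusted p = 0.019). The *EGFR* call at 200 µM ended without control replicate 1 (adjusted p = 0.062) or 2 (0.075). *ERBB4* had 3 to 17 counts per library and was not tested.

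The list of ligand-cutting proteases and their cofactors held 16 genes, all tested. At 100 µM 3 were higher and 4 lower than control, and at 200 µM 5 were higher and 3 lower. Over all tested genes 18.9% were higher and 18.2% lower at 100 µM, and 19.8% and 17.5% at 200 µM, so the list at 100 µM lay near the share of all genes. The fit of control and 100 µM alone gave 6 and 6 but called 61.2% of all genes, and the fit without 200 µM replicate 3 gave 9 and 4 at 200 µM and called 53.8%. The list medians were 0.04 and 0.05 on the log2 scale, against -0.01 and 0.00 over all tested genes. *RHBDF2*, the iRhom2 partner that carries ADAM17 to the surface, rose at 100 µM from 2.85 to 6.41 CPM (1.17 ± 0.18). *CNIH1*, a cornichon export receptor, fell from 200 to 116 CPM (-0.79 ± 0.13), a call lost after removal of the GC trend (-0.36, adjusted p = 0.059). *BACE1*, a neuregulin-cleaving protease, rose by 0.35 ± 0.07 but shares 26.0% of its exon bases with an antisense gene and 17.2% with *RNF214*. Between the doses neither *RHBDF2* (-0.17, edgeR adjusted p = 0.45) nor *CNIH1* (0.06, adjusted p = 0.72) was called. At 200 µM *ADAM19* was lower (-1.08 ± 0.13), and *BACE2* (0.57 ± 0.07) and *TIMP3* (0.55 ± 0.07), an inhibitor of ADAM17, were higher. At 100 µM *BACE2* (-0.29, edgeR adjusted p = 0.011) and *TIMP3* (-0.30, adjusted p = 0.013) were instead called lower than control. Each of these calls at 100 µM was lost in some alternatives (adjusted p from 0.05 to 0.054). *ADAM17* itself, chosen after its values were seen, was higher at 200 µM (0.42 ± 0.11, edgeR adjusted p = 0.015). It lost that call without control replicate 1 (0.056) or 3 (0.057), and shares 12.3% of its exon bases with *IAH1*.

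Of 14 negative regulators of ErbB receptors, 3 were higher and 3 lower at 100 µM, near the 18.9% and 18.2% of all genes, and 8 were higher and 1 lower at 200 µM, where 19.8% and 17.5% of all genes were. Without 200 µM replicate 3 the count at 100 µM was 4 and 7, in a fit that called 56.1% of all genes. The list medians were -0.16 and 0.35. *ERRFI1*, the feedback inhibitor MIG6 that binds active EGFR, went from 308 CPM in control to 179 at 100 µM (-0.78 ± 0.09, edgeR adjusted p = 2.7e-04) and 655 at 200 µM (1.09 ± 0.09, adjusted p = 3.9e-05). *CBL*, the ubiquitin ligase of EGFR, was higher at both doses (0.58 ± 0.08 and 0.60 ± 0.08). *EPN1*, an endocytic adaptor, was higher at 100 µM (1.34 ± 0.10) and at 200 µM (0.39, edgeR adjusted p = 0.013). The *EPN1* call at 200 µM was lost without control replicate 2 (adjusted p = 0.055). *LRIG3* was lower at 200 µM (-0.66 ± 0.08). Of 12 adaptors, 3 were higher and 0 lower at 100 µM, and 4 and 0 at 200 µM, against the same shares of all genes. *SHC1*, the adaptor that links receptors to RAS, was higher at both doses (0.57 ± 0.14 and 0.67 ± 0.14). At 100 µM *PLCG1* (0.63 ± 0.10) and *STAT3* (0.39 ± 0.06) were the others named by the smallest p. At 200 µM they were the PI3K subunit *PIK3R1* (0.48 ± 0.14) and the RAS exchange factor *SOS2* (0.54 ± 0.16). Both *PIK3R1* and *SOS2* lost the call without any 1 of the control libraries (adjusted p from 0.055 to 0.093), and *SOS2* also without 200 µM replicate 1 (0.051). The adaptor count at 200 µM was 1 higher without any 1 control library, where 14.3% to 15.3% of all genes were called higher. Without 200 µM replicate 3 the adaptor count at 100 µM was 5 higher and 1 lower, with 28.7% of all genes called higher. After removal of the GC trend it was 8 and 1 at 100 µM and 7 and 1 at 200 µM, with 19.7% and 25.0% of all genes called higher.

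Of 22 genes that EGF and ERK signalling induce, 5 were higher and 9 lower at 100 µM, where 18.9% of all tested genes were called higher and 18.2% lower. At 200 µM 13 were called higher and 0 lower, against 19.8% and 17.5% of all genes, and the other 9 did not pass the test. The count was 8 and 0 without control replicate 2, where 14.4% of all genes were higher, and 16 and 2 with DESeq2. *LIF*, at -0.33 and not called at 200 µM, was called lower after removal of the GC trend (-0.42, adjusted p = 9.8e-04). *DUSP6*, chosen after its values were seen, was at -0.13 and not called at 200 µM. It was called lower with DESeq2 (-0.12, adjusted p = 0.031) and after removal of the GC trend (-0.15, adjusted p = 0.04). *DUSP6* shares 40.5% of its exon bases with an antisense gene. The list medians were -0.12 and 0.39 on the log2 scale. At 100 µM *MCL1*, a survival factor, fell from 747 to 385 CPM (-0.96 ± 0.07) and the cytokine *LIF* from 83.1 to 23.0 CPM (-1.85 ± 0.14), while the matricellular *CCN1* rose from 24.4 to 53.5 CPM (1.13 ± 0.08). At 200 µM *CCN1* reached 161 CPM (2.72 ± 0.09). The ERK phosphatase *DUSP5* was 6.15-fold higher (2.62 ± 0.16) and the AP-1 subunit *FOSL1* 4.36-fold higher than control (2.12 ± 0.16, edgeR adjusted p = 2.5e-05). Between the doses 15 were higher and 2 lower at 200 µM.

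**Figure D4:**
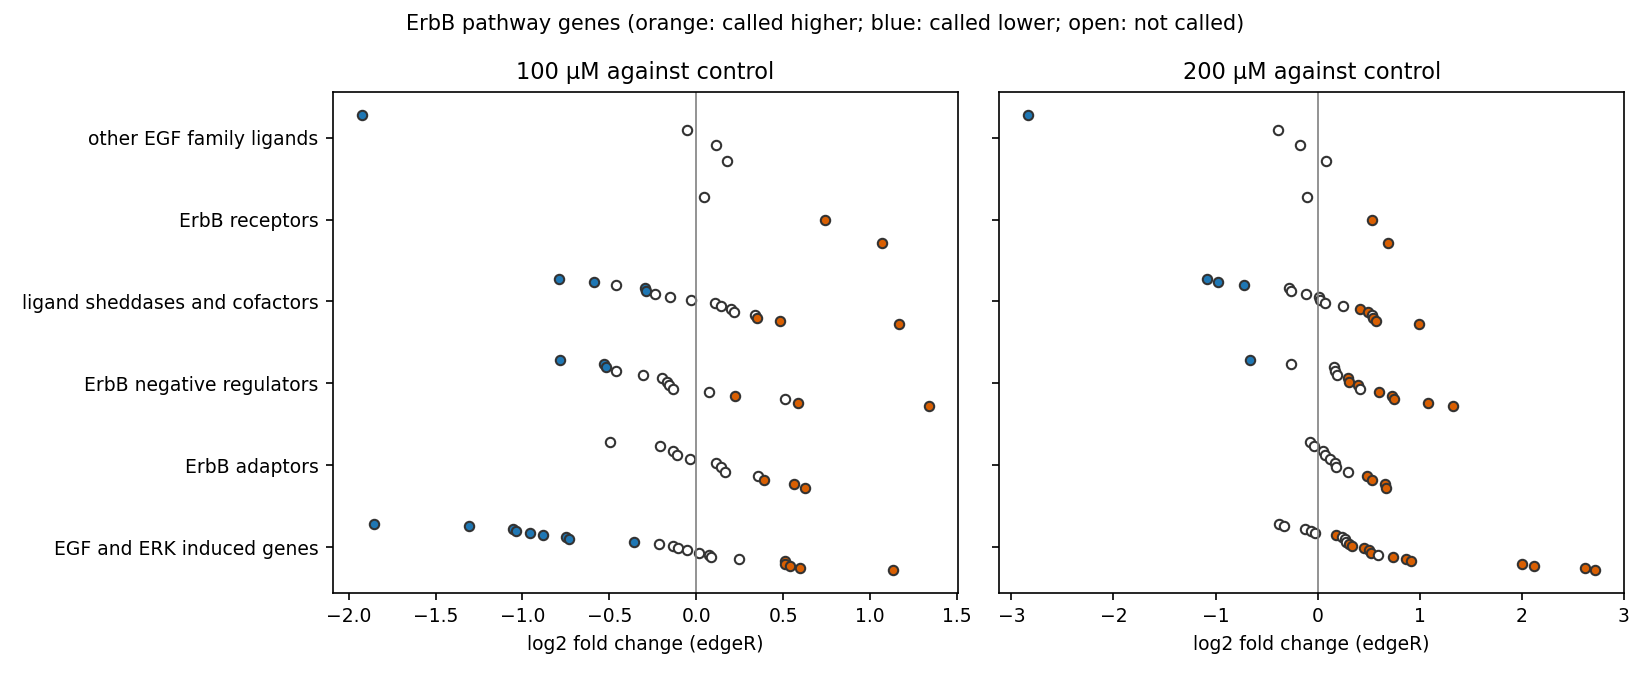
Log2 fold change from edgeR (horizontal axis) of each tested gene of 6 ErbB pathway lists, at 100 µM (left) and 200 µM (right) against control, where each point is 1 gene and filled points passed the test. The EGF and ERK induced genes lie on both sides of 0 at 100 µM, and 13 of 22 are called higher at 200 µM with 0 called lower.

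The genes whose pattern over the 9 libraries came closest to each ligand were found by the root-mean-square difference of log2(CPM + 0.5), each gene taken relative to its control mean, among 12539 genes. For *HBEGF* they were *PPP1R15A*, a stress-induced phosphatase subunit (difference 0.126), *HMGCS1*, an enzyme of cholesterol synthesis (0.143), and *MXD1*, a partner of MAX (0.149). *PPP1R15A* went from 64.7 CPM in control to 35.7 at 100 µM and 236 at 200 µM, the same dip and rise as *HBEGF*. For *TGFA* the closest were *DEPDC1B* (0.0738), *ITPRID2* (0.130) and *CYP4X1* (0.145), and *DEPDC1B* stood at 84.3, 70.3 and 26.9 CPM in the 3 groups. For *AREG* they were the urokinase receptor gene *PLAUR* (0.209), the metalloprotease gene *ADAMTS9* (0.217) and *GNG4* (0.226), all larger differences. The added 0.5 CPM shrinks the changes of *AREG*, which lies near 1 CPM. It also shrinks those of *CYP4X1*, at 2.66 CPM in control and 0.481 at 200 µM. The log2 fold change of *CYP4X1* at 200 µM was -2.46, a larger fall than that of *TGFA* (-1.64). For *NRG1* they were *SPOCK1*, a matrix proteoglycan gene (0.0931), *USPL1* (0.124) and *SLAIN2* (0.124).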

How the data were processed

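The authors deposited raw whole-number counts of reads per gene for each library. The tools listed are FastQC, HISAT2, featureCounts and DESeq2, and the build is GRCh38 (hg38), per the submitters' processing notes. Tool versions, annotation and strand setting: not given in the sources used here. A table of 100 features was deposited by the authors with values read here as FPKM, since the transcript lengths they imply had a median ratio of 1.03 to the longest annotated transcript. Per the labels' protocols, RNA was captured on poly-T beads and libraries were made with a NEBNext Ultra kit.

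The 2142 features without an Ensembl identifier (1.25% to 1.41% of counts) were left out. The other genes were filtered with filterByExpr (minimum count 10) of edgeR 4.0.16 under R 4.3.3, scaled by TMM and fitted by robust quasi-likelihood over all 9 libraries with group as the term (6 residual degrees of freedom). The fit was tested on simulated data. Standard errors were taken from each log2 fold change and its F statistic, as |log2 fold change| / √F. CPM uses TMM-scaled library sizes, so all changes are relative to the other transcripts. With 3 libraries a side, the smallest two-sided p of an exact permutation test is 0.1, and p-values are therefore those of the model. Libraries of a group differed beyond sampling noise (chi-square per degree of freedom 10.5 to 146). P-values and the 95% intervals, which use the total degrees of freedom of the test, measure the spread between these libraries, and limits at a count of 0 cover counting error only. Gene positions, exon lengths and overlaps came from GENCODE v29, and overlaps of at least 10% of exon bases are given beside a gene. Overlaps were determined only for the ligands and the genes of the lists, so other named genes were not checked.

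The members and lists were chosen with earlier results of these data known. From the 4 longer lists the text names the 3 called genes with the smallest adjusted p per comparison against control. *ADAM17* and *DUSP6* were named besides these, after their values were seen. Alternatives were DESeq2 1.42.0, other scalings, filters and samples, a GC correction, a replicate block and leaving out each library.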

Additional observations from a re-analysis of the deposited data

Results flagged for a closer look

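*HBEGF* drew attention because it was called lower than control at 100 µM and higher than control at 200 µM. The log2 fold change of 200 µM against 100 µM was 2.70 ± 0.11 (SE), and 2.68 without 200 µM replicate 3. Since the gene was picked for its opposite calls against the same control libraries, this value restates them and is given as a description. Groups of 3 libraries were too small for a formal test for single outlying libraries, and none was run. Each library was instead left out in turn.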

How the results depend on the processing

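Of 216 values of the 4 tested ligands under 18 alternatives, 193 stayed on the same side of the threshold, 23 lost the call and 0 changed direction. The losses were those of *TGFA* at 100 µM and of *NRG1* at 200 µM. *TGFA* at 100 µM changed by -0.19 with total-count scaling, -0.25 without a filter, -0.22 after removal of the GC trend and -0.28 to -0.21 when a library was left out. *NRG1* at 200 µM against control changed by 0.62 without a filter, 0.63 in the fit of the 2 groups alone, 0.63 with features without Ensembl identifier kept, and 0.36 to 0.75 when a library was left out. Against 100 µM it was 0.49 to 0.89. The causes were not tested. DESeq2 kept all calls of the ligands. *EREG* was not tested.

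No pairing of the libraries by replicate number was detected. Correlations of same-numbered deviations ran from -0.16 to 0.03, and not every library correlated best with its own number. Such correlations cannot show that the libraries were prepared unpaired. With the replicate block 4264, 4369 and 5404 genes were called in the 3 comparisons, *TGFA* at 100 µM was -0.25 (adjusted p = 0.09) and *NRG1* at 200 µM 0.59 (0.056).

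At 100 µM against control 5181 genes were called, 8417 in the fit of those 2 groups alone, and 3469 to 7943 when a library was left out, the most without 200 µM replicate 3. Genes called in the 6 pathway lists at 100 µM numbered 50 in that fit of 2 groups and 27 to 48 with a library left out. *AREG* and *EREG* are limited by depth.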
